A study of Mus musculus with 24 samples.

Results

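Transcript levels of 9 interferon-response genes were followed in cultured mouse oligodendrocytes exposed to ethanol. The genes were Ifitm1, Ifitm2 and Ifitm3 of the interferon-induced transmembrane (IFITM) family and the interferon-stimulated genes Ifit1, Ifit3, Isg15, Irf7, Bst2 and Oasl2. They were chosen by name, with earlier results of these data known. All 9 were matched by Ensembl identifier among the 55359 rows of the count table. Oligodendrocytes were isolated from the cortex of C57BL6/J pups at P5-7 by magnetic sorting for O4, a surface marker of immature oligodendrocytes, and were differentiated for 3 days, mainly with triiodothyronine. Experiment 1, labelled Batch 1, held 6 samples kept for a further 3 days in 30 mM ethanol and 6 control samples without ethanol (0 mM). Experiment 2, labelled Batch 2, held 6 samples in 10 mM ethanol and 6 controls. All 4 groups shared the strain, age, sorting and differentiation. Control plates stood in another incubator than ethanol plates, and the effects of incubator and ethanol cannot be told apart. Each dose was used in 1 experiment, which leaves dose and batch in the same position. The labels call the samples biological replicates and do not say whether they came from separate litters or isolations, so p-values measure only the spread between these samples.

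Type I interferons bind the receptor pair Ifnar1 and Ifnar2, whose kinases Jak1 and Tyk2 activate transcription factors that, with Irf9, bind the interferon-stimulated response element (ISRE) in the promoters of antiviral genes. Interferon-γ acts through another element, the gamma-activated site (GAS). IFITM proteins are small membrane proteins that hinder the entry of enveloped viruses, and the other 6 genes encode an RNA-binding effector (Ifit1), its partner (Ifit3), a ubiquitin-like modifier (Isg15), a transcription factor that amplifies interferon production (Irf7), a tether of budding virions (Bst2) and a relative of the oligoadenylate synthetases (Oasl2).

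The promoters of the 9 genes were searched for the ISRE core because it is the element these genes are known by. The windows ran from 250 bases before to 50 bases after the gene start, in RefSeq's GRCm38.p6, where all 9 genes were matched. The core was written as GAAA, any 2 bases, then GAAA, and was searched on both strands, overlapping matches included. It was present in 6 of the 9 genes (66.7%), in 26 of 51 matched genes of a list of other interferon-stimulated genes (51%) and in 3.99% of all 27025 genes in the table. The stretches that hold it upstream of the start follow 5′ to 3′ on the gene's strand, with the ISRE core in capitals.
Ifit1: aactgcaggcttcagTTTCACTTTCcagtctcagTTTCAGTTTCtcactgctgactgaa
Ifit3: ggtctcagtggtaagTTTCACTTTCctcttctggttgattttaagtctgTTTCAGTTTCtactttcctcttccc
Isg15: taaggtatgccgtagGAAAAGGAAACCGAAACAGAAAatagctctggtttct
Bst2: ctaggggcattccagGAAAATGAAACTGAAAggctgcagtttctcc
Ifitm2: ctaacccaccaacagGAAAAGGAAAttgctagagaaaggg
These stretches lie at chr19:34640770-34640828 (plus strand, Ifit1), chr19:34583358-34583431 (plus, Ifit3), chr4:156200860-156200911 (minus, Isg15), chr8:71537572-71537617 (minus, Bst2) and chr7:140955983-140956022 (minus, Ifitm2), all upstream of the annotated start. Ifit1 and Ifit3 each held 2 separate copies on the opposite strand. Isg15 held 3 overlapping copies and Bst2 held 2. In Ifitm3 both copies lay past the start, in the first 30 transcribed bases at chr7:141010715-141010744 (minus strand).
Ifitm3: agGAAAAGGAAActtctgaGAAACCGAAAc
Ifitm1, Irf7 and Oasl2 had no copy in their windows, which says only that these letters are not there. The GAS core, written as TTC, any 3 bases, then GAA, was found in Ifitm3 and Bst2 and in 9.55% of all genes; in Ifitm3 it overlapped the second ISRE copy, and in Bst2 the first. The plot of motif positions shows all matches by distance from the start.

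**Figure D1:**
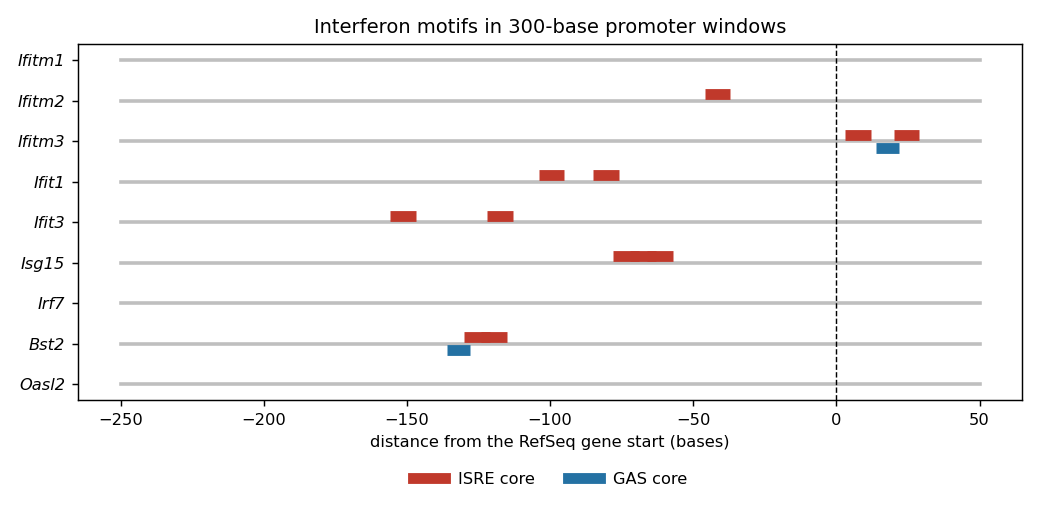
Positions of ISRE cores (red) and GAS cores (blue) in the 300-base RefSeq promoter window of each gene, as distance in bases from the gene start (dashed line). The matches of Ifit1, Ifit3, Isg15, Bst2 and Ifitm2 lie upstream, those of Ifitm3 lie just past the start, and Ifitm1, Irf7 and Oasl2 have none.

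Levels are in CPM, counts scaled to a fixed library size with TMM factors over all 24 samples. The 3′ tag protocol reads transcript ends, and a count therefore does not scale with transcript length. Total counts ran from 1184609 to 1817028 per sample, and 3 counts, taken as the floor of detection, stood for 1.69 to 2.51 CPM. The floor covers counting error only. Oligodendrocyte markers were present in every sample, with 10 of 10 tested and a summed level between 6972 and 15952 CPM, the highest in replicate 1 at 30 mM. Markers of other cells were present too: astrocyte markers summed to between 3897 and 6774 CPM, and microglia markers to between 256 and 420 CPM in experiment 1 and between 3036 and 3831 CPM in experiment 2. In such bulk samples, fewer cells of a type and less RNA per cell cannot be told apart.

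Among the 9 genes, the IFITM genes carried nearly all of the signal, with 94.8% of the 6965 counts of the 9 genes in the controls of experiment 1 and 91.7% of the 6079 counts in the controls of experiment 2. Ifitm3 stood above 380 CPM in every sample and Ifitm2 above 98 CPM. Ifit1, Isg15 and Irf7 were close to the floor, with 1 to 19 counts in a sample. Genes with too few counts were left out of the test by edgeR's filter, and 6 of the 9 genes passed it in each comparison of 2 groups; Ifit1, Isg15 and Irf7 did not. The plot of levels by sample shows each gene in the 4 groups.

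**Figure D2:**
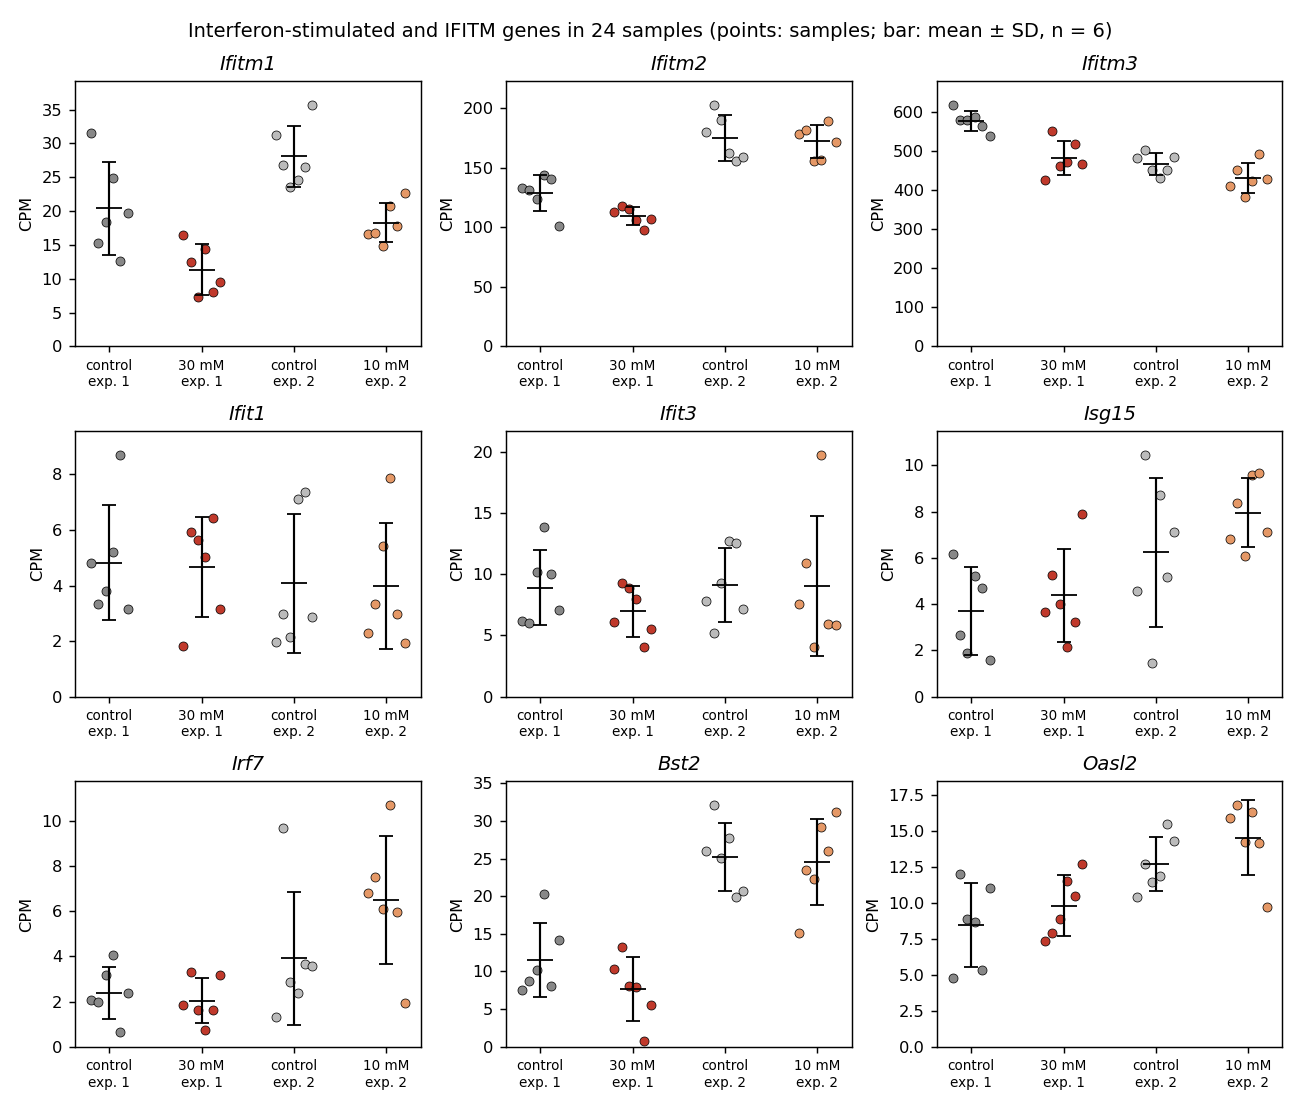
Level of each of the 9 genes in CPM in the 24 samples, by group. Points are samples, and bars give the mean and SD of 6 samples; axes start at 0. Ifitm1 is lower in the ethanol samples of both experiments, and Bst2 is lower in both groups of experiment 1 than in experiment 2.

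At 30 mM, 2 of the 6 tested genes changed and both fell: Ifitm1 and Ifitm3 (edgeR quasi-likelihood test, adjusted p under 0.05 over all genes). Over all 13235 genes tested, 9.67% passed in either direction, 3.02% as higher and 6.65% as lower. No tested gene of the 9 rose. The median log2 fold change of the 6 was -0.29, and that of all genes tested was 0.02.

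Ifitm1, whose product sits mostly at the cell surface, ranged from 12.7 to 31.5 CPM (median 19.0) in the controls of experiment 1. At 30 mM it ranged from 7.24 to 16.5 CPM (median 11.0). The ethanol samples were the lower group, but control replicates 2 and 5, at 15.3 and 12.7 CPM, lay within the ethanol range. The mean went from 20.4 ± 6.83 to 11.4 ± 3.71 CPM (SD, n = 6). On the log2 scale this was a change of -0.79 (95% interval -1.24 to -0.34, SE 0.223, edgeR adjusted p = 0.0172). The call was lost when replicate 3 at 30 mM (edgeR adjusted p = 0.0588), control replicate 1 (0.0879) or control replicate 4 (0.0539) was left out.

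Ifitm3, an endosomal protein and the best-studied antiviral member of the family, ranged from 540 to 619 CPM (median 581) in the controls and from 427 to 551 CPM (median 470) at 30 mM. Of the ethanol samples, only replicate 2, at 551 CPM, lay above the lowest control. The mean went from 579 ± 25.9 to 484 ± 44.3 CPM (SD, n = 6). The log2 change was -0.23 (95% interval -0.36 to -0.11, SE 0.0617, edgeR adjusted p = 0.00938). The adjusted p stayed between 0.00286 and 0.0366 over all alternatives run for this gene.

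Ifitm2, the third of these neighbouring genes on chromosome 7, had 102 to 144 CPM (median 132) in the controls and 98.0 to 118 CPM (median 110.0) at 30 mM. Its log2 fold change was -0.21 (95% interval -0.37 to -0.05, edgeR adjusted p = 0.0915). It passed when control replicate 6, the lowest control at 102 CPM, was left out (edgeR adjusted p = 0.0266). Of the 100-base stretches in the last 500 bases of its transcript, 22.2% also occur in other annotated genes (Gm45717, Gm8865 and Gm11951), so its count is less certain than those of Ifitm1 and Ifitm3, which share none.

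The other 3 tested genes did not pass at 30 mM. Bst2 had 7.54 to 20.2 CPM (median 9.40) in the controls and 0.803 to 13.2 CPM (median 7.99) at 30 mM, with a log2 fold change of -0.52 (95% interval -1.15 to 0.10, edgeR adjusted p = 0.31). The low end was replicate 5, with 1 count. Ifit3 had 6.00 to 13.9 CPM (median 8.56) in the controls and 4.02 to 9.23 CPM (median 7.02) at 30 mM, a log2 fold change of -0.34 (-0.91 to 0.23, edgeR adjusted p = 0.502). A share of 4.24% of the 100-base stretches at its 3′ end is common to its near-copy Ifit3b. Oasl2 had 4.80 to 12.0 CPM (median 8.77) in the controls and 7.33 to 12.7 CPM (median 9.65) at 30 mM, a log2 fold change of 0.23 (-0.32 to 0.77, edgeR adjusted p = 0.657). The groups overlapped for all 3, and the intervals leave room for changes of either sign. Leaving out 1 sample at a time moved Bst2 between -0.74 and -0.27, the latter without control replicate 4. It moved Ifit3 between -0.43 and -0.16, the latter also without control replicate 4, and Oasl2 between 0.11 without control replicate 1 and 0.36 without control replicate 2.

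Ifit1, Isg15 and Irf7 could be fitted at 30 mM only without the filter, over 34851 genes. Their log2 fold changes were -0.08 for Ifit1 (95% interval -0.82 to 0.66), 0.20 for Isg15 (-0.59 to 1.00) and -0.24 for Irf7 (-1.26 to 0.79). Summed over 6 samples, Ifit1 had 44 counts in the controls and 38 at 30 mM, Isg15 34 and 36, and Irf7 22 and 17. All of these intervals hold changes of either sign, so no direction can be given. Their width comes from the few counts and from the spread between samples.

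At 10 mM, 1 of the 6 tested genes changed, where 0.657% of 13538 genes passed in either direction and 0.266% as lower: Ifitm1 fell. It ranged from 23.6 to 35.7 CPM (median 26.7) in the controls of experiment 2 and from 14.9 to 22.7 CPM (median 17.3) at 10 mM, so that all 6 ethanol samples lay below all 6 control samples. Groups that do not overlap occurred in 0.842% of genes in this comparison. The mean went from 28.1 ± 4.56 to 18.3 ± 2.92 CPM (SD, n = 6). Its log2 change was -0.61 (95% interval -0.91 to -0.31, SE 0.151, edgeR adjusted p = 0.0301). Over all alternatives the log2 change lay between -0.68 and -0.53, and the adjusted p ran from 0.0145 to 0.153. It was above 0.05 without the low-count filter (0.0562), in DESeq2 (adjusted p = 0.149), in the joint edgeR fit of 24 samples (adjusted p = 0.153), and without replicate 1, 2, 3 or 5 at 10 mM or control replicate 1, 5 or 6 (up to 0.146).

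The other IFITM genes did not pass at 10 mM. Ifitm3 had 431 to 504 CPM (median 468) in the controls and 383 to 494 CPM (median 427) at 10 mM, a log2 fold change of -0.12 (95% interval -0.23 to -0.01, edgeR adjusted p = 0.464). Ifitm2 had 156 to 203 CPM (median 171) and 156 to 190 CPM (median 175), a log2 fold change of -0.03 (-0.17 to 0.11, edgeR adjusted p = 0.929). The interval for Ifitm2 holds no change beyond 0.17 on the log2 scale in either direction.

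Bst2, Ifit3 and Oasl2 did not pass at 10 mM either. Bst2 had 19.9 to 32.1 CPM (median 25.6) in the controls and 15.2 to 31.1 CPM (median 24.8) at 10 mM, a log2 fold change of -0.02 (95% interval -0.32 to 0.28, edgeR adjusted p = 0.981). Ifit3 had 5.22 to 12.7 CPM (median 8.56) and 4.06 to 19.7 CPM (median 6.77), a log2 fold change of 0.04 (-0.50 to 0.58, edgeR adjusted p = 0.98). Its highest sample, replicate 4 at 10 mM, had 35 counts, and without it the log2 fold change was -0.43. Oasl2 had 10.4 to 15.5 CPM (median 12.3) and 9.73 to 16.8 CPM (median 15.1), a log2 fold change of 0.19 (-0.20 to 0.57, edgeR adjusted p = 0.813).

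Of the 3 genes below the filter, Irf7 had the largest difference at 10 mM. It had 57 counts over the 6 ethanol samples, from 1.95 to 10.7 CPM (median 6.46), and 32 counts over the controls, from 1.30 to 9.69 CPM (median 3.21). The groups overlapped: control replicate 2 had 13 of the 32 counts, and ethanol replicate 6 was the lowest of its group. Without the filter, the log2 fold change was 0.77 (95% interval 0.11 to 1.44) and did not pass over 36613 genes (edgeR adjusted p = 0.593). Isg15, with 69 against 51 counts, had 0.39 (-0.17 to 0.95), and Ifit1, with 36 against 33 counts, had 0.08 (-0.66 to 0.81).

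**Figure D3:**
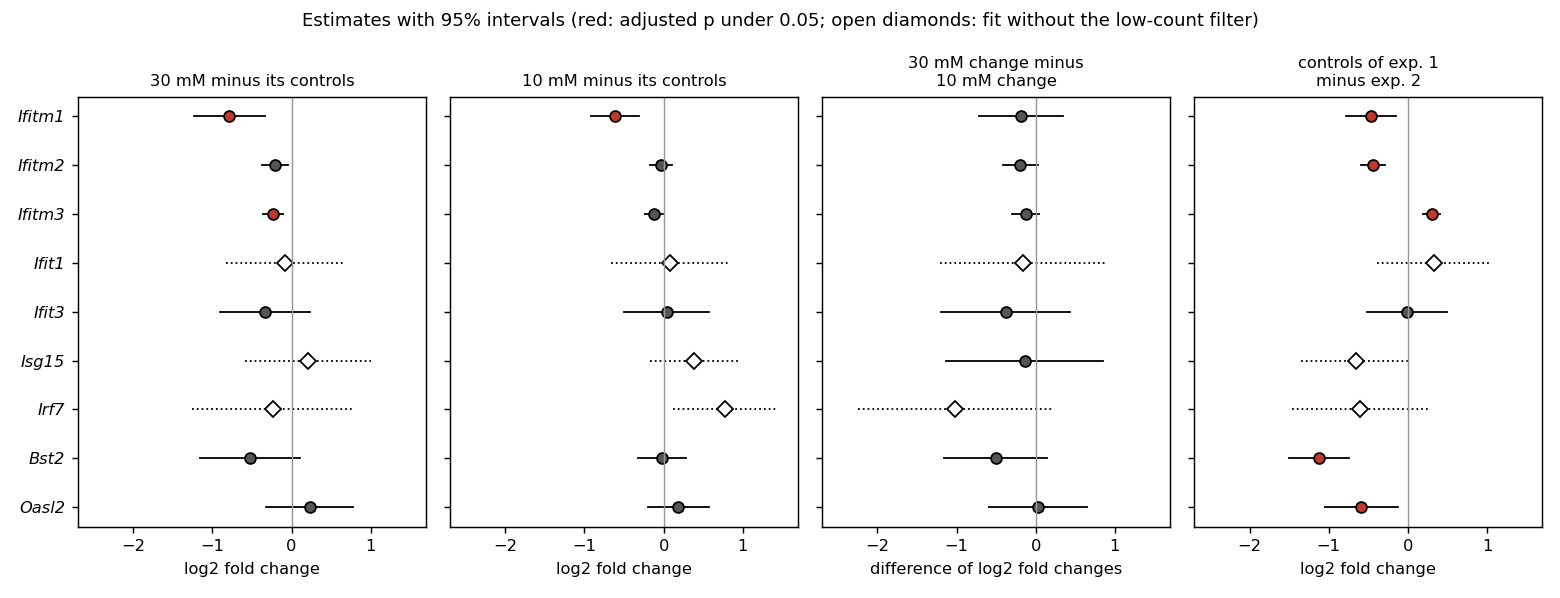
Estimated log2 fold change of each gene with its 95% interval, for 30 mM and 10 mM ethanol against their own controls, for the difference between these changes, and for the controls of experiment 1 against those of experiment 2. Red points passed an adjusted p of 0.05, and open diamonds with dotted lines come from the fit without the low-count filter; Ifitm1 is red in both ethanol panels, at -0.79 and -0.61.

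Whether the change differed between the doses was tested in 1 fit of all 24 samples, in which 7 of the 9 genes were tested and 3.28% of 14655 genes passed (0.88% higher, 2.4% lower). None of the 7 passed in edgeR's quasi-likelihood test, 0 had an unadjusted p under 0.05, and 0 passed in DESeq2 or limma voom. The change of Ifitm1 at 30 mM minus that at 10 mM was -0.18 (95% interval -0.71 to 0.35, edgeR adjusted p = 0.77). For Ifitm3 the difference was -0.13 (-0.30 to 0.05, edgeR adjusted p = 0.465), for Ifitm2 -0.19 (-0.42 to 0.03, edgeR adjusted p = 0.367) and for Bst2 -0.51 (-1.16 to 0.14, edgeR adjusted p = 0.437). The intervals of Ifitm2 and Ifitm3 are narrow, while those of Bst2, Ifit3 (-1.20 to 0.44) and Isg15 (-1.13 to 0.85) allow differences of 2-fold. This contrast holds dose, experiment and batch together.

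Markers of other cells were set beside these changes. At 30 mM, 6 of 9 tested fibroblast and mural markers fell, and their summed level ranged from 380 to 445 CPM against 732 to 1070 CPM in the controls, without overlap. At 10 mM, 2 of 8 fell, with 550 to 616 CPM against 557 to 745 CPM. The summed level of microglia markers overlapped at both doses. It was 259 to 403 CPM at 30 mM against 256 to 420 CPM. At 10 mM it was 3260 to 3831 CPM against 3036 to 3618 CPM. Of single microglia markers, 1 of 9 tested rose at 30 mM and 1 of 12 at 10 mM, and 0 fell at either dose. Cx3cr1 had 5.54 to 16.1 CPM at 30 mM against 2.74 to 8.09 CPM. At 10 mM Cx3cr1 had 132 to 150 CPM against 93.8 to 127 CPM, without overlap. Of the endothelial markers, Cldn5 had no count in 3 of the 4 groups, and 0 of 4 tested passed at 30 mM. Their summed level was 159 to 195 CPM at 30 mM against 168 to 212 CPM. Slco1c1 gave most of it, with means of 115 of 175 CPM at 30 mM and 128 of 191 CPM in the controls. Over 6 samples, Ly6c1 had 10 counts at 30 mM and 51 in the controls, and Flt1 had 135 and 109. Of 10 oligodendrocyte markers, 7 rose at 30 mM and 2 at 10 mM, and 5 of 8 astrocyte markers rose at 30 mM (5453 to 6774 CPM against 3897 to 4953 CPM). Of 5 neuron markers, 1 fell at 30 mM, and 1 rose and 1 fell at 10 mM. Of 5 oligodendrocyte precursor markers, 0 passed at either dose. Beside these counts, 3.02% of all genes tested rose and 6.65% fell at 30 mM, and 0.391% rose and 0.266% fell at 10 mM. The part of any of these cell types in the fall of Ifitm1 and Ifitm3 was not tested.

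The rest of the pathway was described from lists of its ligands, receptors, transducers, sensors, regulators and targets. No count was found for Ifnb1 or Ifng in any of the 24 samples, and the other 9 interferon genes in the list had at most 3 counts in a group of 6 samples. At 30 mM, 1 of 5 tested receptors passed: Ifngr1, a chain of the interferon-γ receptor, went from 40.5 ± 4.76 to 50.6 ± 5.51 CPM (SD, n = 6; log2 fold change 0.35, edgeR adjusted p = 0.038). None of 6 JAK-STAT transducers, 10 sensors and adaptors, 6 kinases and regulatory factors or 4 genes of ISG15 conjugation passed in edgeR's test at 30 mM, and 2, 0, 0 and 1 of them had an unadjusted p under 0.05. Samhd1, an enzyme that degrades nucleotides and limits interferon induction, was the 1 of 6 inhibitors that fell (55.6 ± 5.10 to 44.1 ± 3.79 CPM, SD, n = 6; log2 fold change -0.32, edgeR adjusted p = 0.0474). The calls of Ifngr1 and Samhd1 were lost in DESeq2 (adjusted p = 0.0901 and 0.126) and in 6 and 8 of the 12 edgeR fits that each left out a sample. Without the low-count filter the call of Ifngr1 was lost too (edgeR adjusted p = 0.148), and that of Samhd1 was lost under all other settings but the joint fit.

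Of 64 other interferon-stimulated genes, 31 passed the filter at 30 mM, and 2 of these passed the test, 1 lower and 1 higher. This was 6.45% of the list, beside 9.67% of all genes tested. The lower was Ifit2, a relative of Ifit1 and Ifit3 that lies next to Ifit3. It ranged from 7.08 to 20.7 CPM in the controls and from 5.63 to 11.2 CPM at 30 mM, with means of 15.04 ± 4.92 and 8.38 ± 1.89 CPM (SD, n = 6; log2 fold change -0.82, edgeR adjusted p = 0.0252). The call was lost without replicate 3 at 30 mM (edgeR adjusted p = 0.072), control replicate 3 (0.0835) or control replicate 5 (0.0861), and in limma voom (adjusted p = 0.0525). The higher was Tap1, a subunit of the transporter that feeds peptides to MHC class I, which went from 29.8 ± 4.67 to 42.2 ± 3.54 CPM (SD, n = 6; log2 fold change 0.52, edgeR adjusted p = 0.00445). All 6 ethanol samples lay above all 6 controls for Tap1. Groups did not overlap for 2 of the 31 tested genes of the list and for 4.16% of all genes. The list's median log2 fold change was 0.02, against 0.02 over all genes tested.

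At 10 mM, 0 of 41 tested genes of this list passed in edgeR, DESeq2 or limma voom, and 6 had an unadjusted p under 0.05. Of the 41, 31 had a positive log2 fold change and 10 a negative one, with a median of 0.10 against -0.0023 over all genes tested. Tap1 had 0.39 (edgeR adjusted p = 0.252) and Ifit2 -0.56 (edgeR adjusted p = 0.277). Ifngr1 had -0.01 and Samhd1 0.12 on the log2 scale. None of the receptors, transducers, sensors, regulatory factors, inhibitors or conjugation genes passed at 10 mM in edgeR's test, and 1 transducer and 1 inhibitor had an unadjusted p under 0.05. For the difference between the doses, 0 of 42 genes of the list passed in edgeR, DESeq2 or limma voom, and 8 had an unadjusted p under 0.05.

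**Figure D4:**
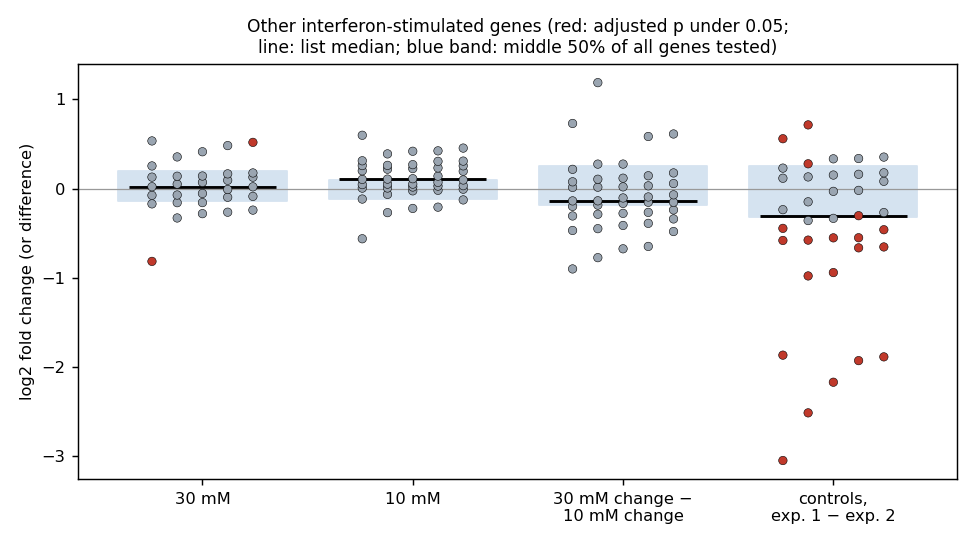
Log2 fold changes of the tested genes in a list of 64 other interferon-stimulated genes, in the comparisons of 30 mM and 10 mM with their controls, for the difference between these changes and for the controls of experiment 1 minus those of experiment 2. Points are genes (red: adjusted p under 0.05), black lines are list medians and blue bands hold the middle 50% of all genes tested; 2 of 31, 0 of 41, 0 of 42 and 20 of 37 genes are red.

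The level of these genes without ethanol differed between the experiments. Of the 6 tested genes, 5 differed between the control groups, 4 lower and 1 higher in experiment 1, where 43.6% of 13479 genes passed (21.3% higher, 22.3% lower). These control samples are the same as those in the ethanol comparisons. Bst2 had the largest difference: its means were 11.5 ± 4.92 CPM in experiment 1 and 25.2 ± 4.53 CPM in experiment 2 (SD, n = 6). The log2 difference was -1.12 (95% interval -1.50 to -0.75, SE 0.189, edgeR adjusted p = 7.28e-07). Only control replicate 4 of experiment 1, at 20.2 CPM, reached the range of experiment 2.

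The IFITM genes did not differ in 1 direction between the controls. Ifitm3 was higher in experiment 1, by 0.30 on the log2 scale (edgeR adjusted p = 4.29e-06), with all 6 samples above those of experiment 2. Ifitm2 was lower in experiment 1 in all 6 samples, with a log2 fold change of -0.44 (edgeR adjusted p = 8.45e-07). Groups did not overlap in 18.6% of genes in this comparison. Ifitm1 was lower by -0.47 on the log2 scale (edgeR adjusted p = 0.0139), a call lost without control replicate 5 of experiment 1 (0.07) or control replicate 6 of experiment 2 (0.0615). Oasl2 was lower as well, with means of 8.45 ± 2.91 and 12.7 ± 1.88 CPM (SD, n = 6; log2 fold change -0.59, edgeR adjusted p = 0.0317), a call lost in DESeq2 (adjusted p = 0.0666), without the low-count filter (edgeR adjusted p = 0.0913), and without control replicate 1 or 5 of experiment 1 or control replicate 5 or 6 of experiment 2 (edgeR adjusted p = 0.0668 to 0.104). Ifit3 had -0.01 (95% interval -0.51 to 0.50, edgeR adjusted p = 0.982).

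By mean level, Ifitm2 and Bst2 had the same order of groups from high to low: controls of experiment 2, 10 mM, controls of experiment 1 and 30 mM. For Ifitm2 the ranges of neighbouring groups overlapped except between 10 mM and the controls of experiment 1, and for Bst2 all neighbours overlapped. For Ifitm1 the order was controls of experiment 2, controls of experiment 1, 10 mM and 30 mM, and each group overlapped the next. For Ifitm3 the controls of experiment 1 were highest, followed by 30 mM, the controls of experiment 2 and 10 mM, and each group overlapped the next. Isg15, Irf7 and Oasl2 had their highest mean at 10 mM, with 7.94 ± 1.49, 6.51 ± 2.83 and 14.5 ± 2.58 CPM (SD, n = 6). Ifit1 stood between 3.97 and 4.83 CPM in the 4 groups and did not separate any of them.

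Of 37 tested genes in the list of other interferon-stimulated genes, 17 were lower and 3 higher in the controls of experiment 1. This was 54.1% of the list, beside 43.6% of all genes tested, and the median log2 fold change was -0.30, beside -0.01 over all genes. The next 4 genes each had the largest difference in their own list: receptors, sensors, regulatory factors and other interferon-stimulated genes. Il10rb, a receptor chain for interferon-λ and interleukin-10, had a log2 fold change of -1.22 (edgeR adjusted p = 1.83e-12), and 3 of 5 tested receptors were lower in experiment 1. Tlr7, an endosomal sensor of single-stranded RNA, had -4.03 (edgeR adjusted p = 4.97e-15), with 8 counts over the controls of experiment 1 and 130 over those of experiment 2. Irf5, a transcription factor of myeloid cells, had -1.90 (edgeR adjusted p = 5.24e-08), and Ifi207, of the nucleic acid-binding IFI200 family, -3.05 (edgeR adjusted p = 3.16e-13). Of the sensors, 3 of 11 tested were lower in experiment 1 (27.3%), and of the regulatory factors 2 of 7 (28.6%). In both lists 0 genes were higher. Of all genes, 22.3% were lower and 43.6% passed in either direction. Of 7 tested inhibitors, 2 were lower and 1 higher, with log2 fold changes from -2.44 to 0.59 over the list. Of 4 tested genes of ISG15 conjugation, 2 were lower. None of the 6 JAK-STAT transducers passed in edgeR's test, and 1 had an unadjusted p under 0.05. All 12 tested microglia markers were lower in experiment 1, with a median log2 fold change of -3.15. Markers of other cells differed as well. Of 9 tested fibroblast and mural markers, 2 were higher and 4 lower, and of 8 astrocyte markers 4 and 3. Of 4 endothelial markers, 2 were higher and 1 lower. Lower were also 4 of 5 oligodendrocyte precursor markers, 2 of 6 neuron markers and 2 of 10 oligodendrocyte markers, and 0 of these were higher. The part of any of these cells in the differences of the 9 genes and the pathway lists was not tested.

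**Figure D5:**
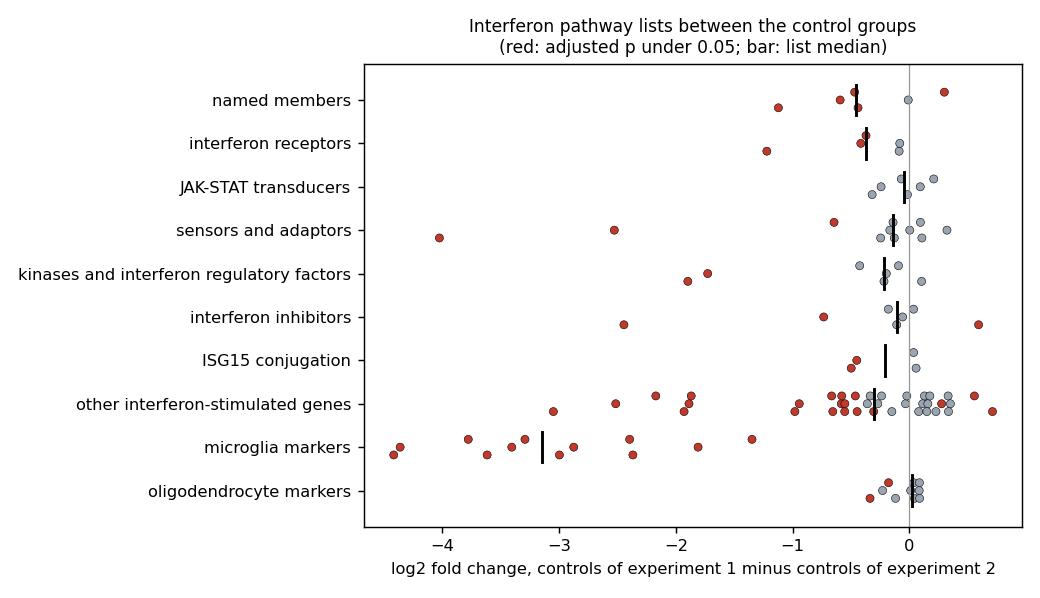
Log2 fold changes between the control groups (experiment 1 minus experiment 2) for the named genes, the pathway lists and the marker lists of microglia and oligodendrocytes. Points are genes (red: adjusted p under 0.05) and bars are list medians; the median is -0.45 for the named genes, -0.30 for other interferon-stimulated genes, -3.15 for microglia markers and 0.03 for oligodendrocyte markers.

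Of the 4 IFITM relatives in the table, Ifitm7 and Ifitm10 were tested. Neither passed at either dose in edgeR's test, where 0 of the 2 had an unadjusted p under 0.05 at 30 mM and 1 at 10 mM. Between the controls both passed, 1 as higher and 1 as lower in experiment 1, where 43.6% of all genes passed. Ifitm10, a distant relative, had 79.8 ± 11.3 CPM in the controls of experiment 1 and 52.8 ± 5.60 CPM in those of experiment 2 (SD, n = 6). This was the same order as Ifitm3 and the opposite order to Ifitm1 and Ifitm2. Ifitm7 had 8.52 ± 2.79 and 12.5 ± 3.41 CPM (SD, n = 6). Ifitm5 had at most 4 counts in a group, and Ifitm6 at most 20.

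Spread within groups is given beside counting noise, which treats reads as independent. Ifitm3 had a coefficient of variation (CV) between 4.48% and 9.16% in the 4 groups, where counting alone gives 3.38% to 4.01%. Ifitm1 had a CV of 33.5% and 32.6% in the groups of experiment 1, where counting gives 18.01% and 24.9%, and of 16.2% and 15.9% in those of experiment 2, where counting gives 16.01% and 19.4%. For Ifit1, Isg15 and Irf7 counting alone gives 29.5% to 59.4%. Single samples were extreme for several genes at the same time. Replicate 2 at 30 mM was highest for 5 of the 9 genes (Ifitm2, Ifitm3, Ifit3, Irf7 and Bst2). Control replicate 2 of experiment 2 was highest for 5 (Ifitm2, Ifitm3, Isg15, Irf7 and Bst2) but lowest for Ifit3. Replicate 3 at 10 mM was lowest for 5 (Ifitm1, Ifitm2, Ifitm3, Ifit3 and Isg15). How often chance gives such shared extremes was not tested.

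For each gene with a mean log2 CPM of at least 3, the most similar genes were found by the root-mean-square distance of mean-centred log2 CPM over the 24 samples, among 13349 genes. For Ifitm3 these were Dhrs1 (0.0940), Tecr (0.103) and Cuta (0.107), where the median distance was 0.335. The nearest to Ifitm2 were Hsp90ab1 (0.107) and Ssb (0.122), where the median was 0.424, and for Bst2 they were Cd14 (0.463), Map7d2 (0.492) and Ptk2b (0.498; median 0.948). For Oasl2 they were Ebf1, Rgs6 and 6330562C20Rik, from 0.222 to 0.233 (median 0.490). Ifitm1 had Cyp1b1, Dnmt1 and Itpripl2 at 0.312 to 0.318 (median 0.615), and Ifit3 had Ewsr1, Tob2 and Ppp3cc at 0.369 to 0.374 (median 0.545). None of Ifitm1, Ifitm2, Ifitm3, Ifit3, Bst2 and Oasl2 was among the 3 nearest of another. The genes searched had to reach the same mean level, so Ifit1, Isg15 and Irf7, which lay below it, could not be found.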

How the data were processed

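RNA of 24 samples was sequenced by 3′ tag sequencing with single-end reads of 100 bases, per the labels' protocols. The authors deposited raw counts per gene, whole numbers named by Ensembl identifiers. The submitters' processing notes name cutadapt 1.18, STAR and the build GRCm39, with no role or order; the counter, annotation release, use of strand and removal of PCR duplicates are not given in the sources used here. Without strand, overlapping or antisense genes cannot be told apart. Symbols were matched for 52083 of 55359 identifiers (94.1%). Promoter windows and 3′ ends came from RefSeq and GENCODE tables of GRCm38, and no coordinate of the counts was used.

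Tests used edgeR 4.0.16 in R 4.3.3: the quasi-likelihood test with TMM factors, the filterByExpr filter at 10 counts and Benjamini-Hochberg adjustment over all genes tested, called at an adjusted p of 0.05. The fits covered the samples of 1 experiment, all 24 samples for the difference between doses, and both control groups. Intervals are 95% intervals of the log2 fold change. No pair of samples of a group agreed within sampling noise (chi-square per degree of freedom 1.07 to 2.88 over 60 pairs). Replicate numbers came from the sample descriptions. Alternatives were other normalizations, no filter, DESeq2 1.42.0, limma 3.58.1 voom, a joint fit, a replicate block and leaving out each sample.

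The 9 genes, the lists and the tests were chosen with earlier results of these data known. The genes named were the 9, genes of the pathway lists that passed at a dose, the gene with the largest difference between controls in each of 4 lists, and the 3 nearest genes by distance, of which 1 is not reported here.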

Additional observations from a re-analysis of the deposited data

Results flagged for a closer look

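Among 36 series of 6 samples (9 genes in 4 groups), 3 held a sample that stood far from the others by Dixon's criterion, where chance gives 1.8. Ifit1 had 8.69 CPM in control replicate 5 of experiment 1, where the other samples had 3.15 to 5.20 CPM. Irf7 had 9.69 CPM in control replicate 2 of experiment 2, where the others had 1.30 to 3.69 CPM. Oasl2 had 9.73 CPM in replicate 6 at 10 mM, where the others had 14.1 to 16.8 CPM. Oasl2 did not pass the test at either dose, and Ifit1 and Irf7 were below the filter.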

How the results depend on the processing

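Of 528 log2 fold changes of single genes refitted without 1 sample, 463 kept their direction and side of the threshold, 33 lost a call, 1 gained one and 31 changed sign. Of 242 under other settings, 221 kept both, 14 lost a call and 7 changed sign. None of the values that changed sign was called in the first place, and the cause was not tested. Over fits that each left out a sample, the count of the 9 genes changed ran from 1 to 3 at 30 mM, from 0 to 1 at 10 mM and from 3 to 5 between the controls, and that of other interferon-stimulated genes from 1 to 4 at 30 mM and from 0 to 3 for the difference between doses. At 10 mM, 0 of the 9 genes passed without the filter, in DESeq2 or in the joint fit, in place of 1. Limma voom left 1 other interferon-stimulated gene at 30 mM, and 2 differed between doses without the filter.

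Signs changed without the filter for Bst2 (0.0034) and Ifngr1 (0.011) at 10 mM, Oasl2 between doses (-0.029) and Ifit3 between controls (0.043, and 0.0064 in the joint fit), and for Ifit3 at 10 mM in limma voom (-0.10). Leaving out samples moved Ifitm2 from -0.059 to 0.016, Ifit3 from -0.43 to 0.19, Bst2 from -0.095 to 0.079 and Ifngr1 from -0.080 to 0.056 at 10 mM, Ifit3 from -0.55 to 0.067, Isg15 from -0.38 to 0.050 and Oasl2 from -0.10 to 0.14 between doses, and Ifit3 from -0.18 to 0.11 between controls.

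The replicate numbers were not found to pair the samples: same-numbered samples had correlations of deviations from -0.18 to 0.24, and in 1 of 12 such pairs the correlation was the best of the sample. With the number as a replicate block, 1 other interferon-stimulated gene differed between doses, Ifit3 at 10 mM had -0.042, the call of Samhd1 at 30 mM was lost, and the counts of the 9 genes were 2 at 30 mM, 1 at 10 mM and 0 between doses. Depth limited Ifit1, Isg15 and Irf7 most, which had too few counts to pass the filter at either dose.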
